A study of Rattus norvegicus with 6 samples.

Results

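The urea cycle enzymes Cps1, Otc, Ass1, Asl and Arg1 were followed in rat liver RNA on Affymetrix RG_U34A arrays. Their members were all probe sets, of 8740 that are no array controls, whose only gene symbol in the platform annotation is Cps1, Otc, Ass1, Asl or Arg1. This gave 9 probe sets for the 5 genes: 3 for Cps1, 2 each for Otc and Asl, and 1 each for Ass1 and Arg1. A probe set is a group of short oligonucleotides read together as 1 signal. The rats, male Sprague Dawley, were tube-fed (total enteral nutrition) on liquid diets over 3 weeks. The 3 Control arrays came from rats on 5% corn oil at 187 kcal/kg metabolic mass/day, and the 3 NASH arrays from rats on 70% corn oil at 220 kcal/kg metabolic mass/day, a diet model of nonalcoholic steatohepatitis. Fat and energy supply differed together, so the diets are compared as a whole. Nothing in the sources used here says that arrays of a group came from separate rats, so p-values measure the spread between these samples only, which may be technical.

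The urea cycle turns ammonia, which is toxic, into urea for excretion, and the liver is the organ that runs the whole cycle. Carbamoyl phosphate synthetase (Cps1) and ornithine transcarbamylase (Otc) work in the mitochondria, and argininosuccinate synthetase (Ass1), argininosuccinate lyase (Asl) and arginase (Arg1) in the cytosol. The enzymes are known to be most abundant in hepatocytes around the portal vein, and their transcripts are known to follow protein intake, glucagon and glucocorticoids.

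The stretches around the start sites of Otc, Ass1 and Cps1 are shown because these are the genes with the lowest p-values in the comparison of diets. Each runs from 250 bases before to 50 after the start that RefSeq gives on the rat build GRCr8, 5′ to 3′ along the gene: Otc at chrX:15202424-15202723 (minus strand), Ass1 at chr3:35149480-35149779 (plus strand) and Cps1 at chr9:76063613-76063912 (plus strand). Capitals mark matches to the motifs searched.
Otc: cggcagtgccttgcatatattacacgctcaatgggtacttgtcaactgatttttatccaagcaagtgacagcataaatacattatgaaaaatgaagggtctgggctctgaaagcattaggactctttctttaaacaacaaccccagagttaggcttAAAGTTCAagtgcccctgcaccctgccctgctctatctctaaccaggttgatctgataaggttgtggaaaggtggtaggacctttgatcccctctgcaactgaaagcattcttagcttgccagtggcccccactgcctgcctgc
Ass1: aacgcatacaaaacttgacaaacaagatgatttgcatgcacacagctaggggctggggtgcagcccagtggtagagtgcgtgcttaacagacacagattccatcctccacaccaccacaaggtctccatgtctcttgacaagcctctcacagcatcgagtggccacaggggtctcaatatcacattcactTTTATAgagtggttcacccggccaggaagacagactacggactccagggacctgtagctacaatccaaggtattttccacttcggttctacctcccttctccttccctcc
Cps1: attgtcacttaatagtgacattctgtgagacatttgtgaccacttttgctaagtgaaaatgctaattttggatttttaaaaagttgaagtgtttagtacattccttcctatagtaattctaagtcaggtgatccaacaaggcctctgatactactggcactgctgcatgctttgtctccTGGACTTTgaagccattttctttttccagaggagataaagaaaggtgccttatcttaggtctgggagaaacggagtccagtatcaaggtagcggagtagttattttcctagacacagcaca
Of the 5 genes, 4 matched the RefSeq promoter table, and Arg1 did not. The motifs were searched on both strands and were listed with these sequences in view. AAAGTNCA, part of the element bound by the hepatocyte factor HNF4, lay 94 bases before the start of Otc and, on the opposite strand, 71 before that of Cps1. It occurs in 4.57% of all 33469 promoters of this length. TATAAA lay 60 bases before the start of Ass1, on the opposite strand, against 14.2% of all promoters, and GGGCGG (Sp1 box) lay in the Asl window alone, against 33.1% of all promoters. None of the 4 windows held TTGCNNAA (C/EBP, 10.6% of all), TGACGTCA (cAMP response element, 1.83%), TGTTCT (glucocorticoid receptor, 20.7%), TGTTTNC (FOXA, 21.1%) or CCAAT (37.5%).

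None of the urea cycle probe sets passed the test between diets, and the brightest probe set of each of the 5 genes was lower in NASH. Values are log2 of the quantile-normalized signal plus an offset of 2.28, and a difference is NASH minus Control on that scale, which understates changes of dim probe sets. Of the 9 probe sets, 8 lay above the intensity filter (mean log2 over 3.95). By limma with Benjamini-Hochberg adjustment over 5244 probe sets, 0 of the 8 had an adjusted p under 0.05, where 0.133% of all tested did. At an unadjusted p under 0.05 there were 2 of the 8, against 7.88% of all. Of the 8, 7 were lower in NASH, against 52.9% of all, but 1 of these (a Cps1 probe set) differed by −0.0031. The median difference was −0.35 for the 8 and −0.41 for the 5 brightest, against −0.02 over all probe sets tested. For the 5 brightest it was −0.18 without Control 2, −0.12 without both Control 2 and NASH 2 and −0.16 with array weights. Whether less of a transcript means fewer cells that make it or less RNA per cell cannot be told apart in such bulk samples.

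**Figure D1:**
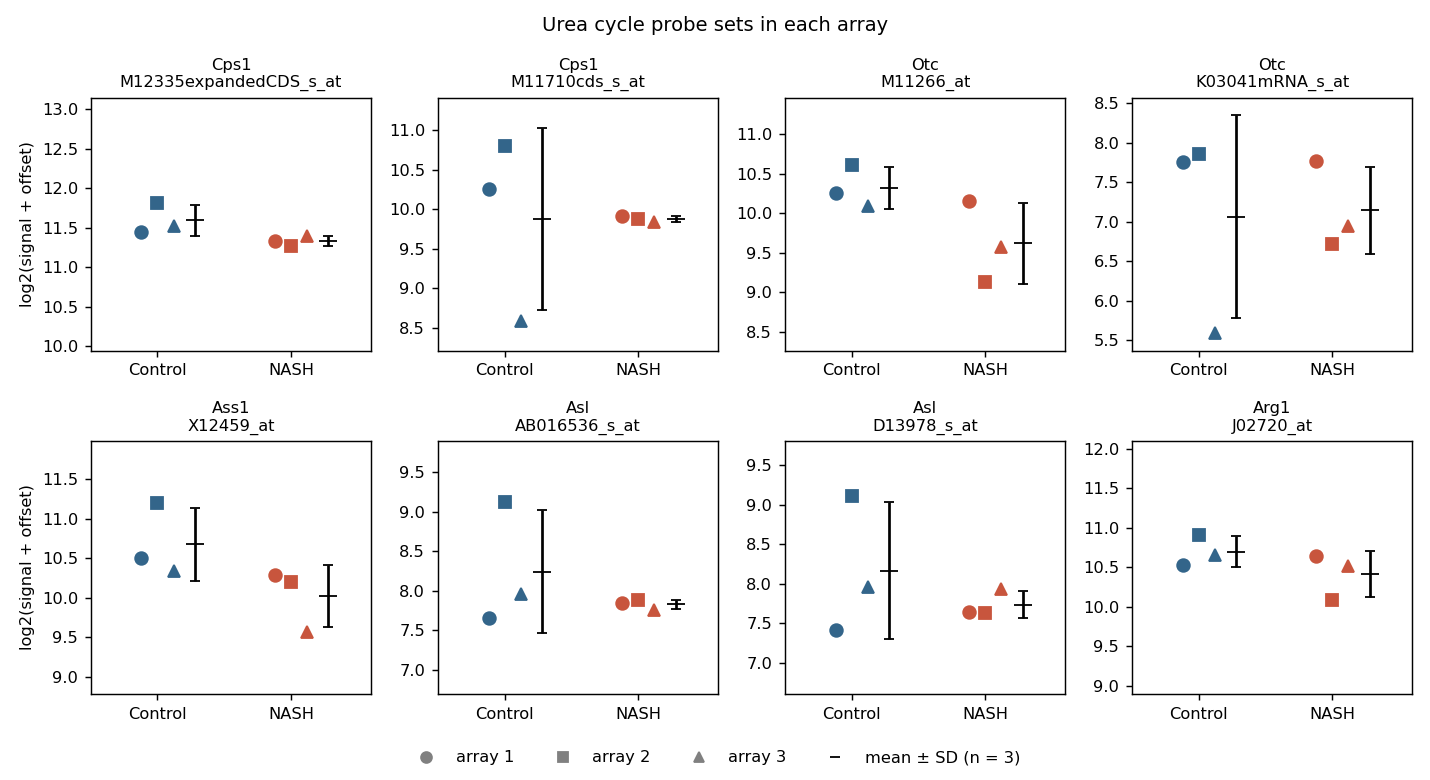
Log2(signal + offset) of the 8 urea cycle probe sets above the intensity filter, 1 panel each, in the 3 Control (blue) and 3 NASH (red) arrays, with the mean ± SD (n = 3) in black; each panel spans the same range of log2 units. The Control 2 square is the highest point in every panel, and the Control 3 triangle is the lowest of M11710cds_s_at of Cps1 and K03041mRNA_s_at of Otc.

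Cps1 makes carbamoyl phosphate from ammonia and bicarbonate, the committed step of the cycle. Its brightest probe set, M12335expandedCDS_s_at, read 11.44, 11.81 and 11.52 in Control 1, 2 and 3 and 11.33, 11.27 and 11.40 in NASH 1, 2 and 3 on the log2 scale. The groups did not overlap, yet the whole span is narrow: NASH was at 83.6% of Control. The difference was −0.26 ± 0.13 (standard error, n = 3 per group; 95% interval −0.56 to 0.04, limma adjusted p = 0.618). It was −0.15 without Control 2, and the groups overlapped once arrays were centred on hepatocyte genes.

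The other Cps1 probe sets did not show this difference. M11710cds_s_at read 10.25 and 10.79 in Control 1 and Control 2 but 8.59 in Control 3, and 9.83 to 9.92 in NASH. Its difference was −0.0031 ± 0.49 (limma adjusted p = 0.998), with the 3 NASH arrays within 0.083 of each other and the Control arrays spread over 2.21. Leaving out Control 3 gave −0.65 and leaving out Control 2 gave 0.45. Z27513exon_i_at was dim, with deposited signals of 0.463 to 0.716 in Control and 0.318 to 2.27 in NASH, and lay below the filter.

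Otc joins carbamoyl phosphate to ornithine to form citrulline. Over all 6 arrays its difference was close to that of Ass1, and which of the pair was larger changed with the arrays left out. Its brightest probe set, M11266_at, had deposited signals of 1535, 1415 and 1131 in Control 1, 2 and 3 and of 1255, 507 and 582 in NASH 1, 2 and 3. On the log2 scale these were 10.26, 10.62 and 10.10 against 10.16, 9.13 and 9.58. NASH 2 and NASH 3 lay below every Control array, while NASH 1 lay within the Control range. The difference was −0.70 ± 0.27 (95% interval −1.33 to −0.07), or 61.4% of Control, with an unadjusted limma p of 0.0327 and an adjusted p of 0.581.

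Otc was lowest in NASH 2, the array that also held fat and muscle transcripts. Without NASH 2 the difference was −0.46, and without both NASH 2 and Control 2 it was −0.31. Of 10 adipose markers, 9 were on the array, and their summed deposited signal was 459 to 584 in Control and 595, 3664 and 500 in NASH 1, 2 and 3. For 12 of 14 skeletal muscle markers the sum was 164 to 274 in Control and 223, 2567 and 179 in NASH. No marker was at 0: Fabp4, a fat cell fatty acid binding protein, read 0.800 to 4.47 outside NASH 2 and 1044 in it, and the brown fat protein Ucp1 read 2.59 to 15.97 and 1100. Of the muscle proteins, the actin Acta1 read 1.56 to 18.9 outside NASH 2 and 1322 in it, and creatine kinase Ckm read 13.6 to 50.6 and 447. Their part in the Otc value was not tested.

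The dimmer Otc probe set, K03041mRNA_s_at, gave a difference near 0 with a wide interval. It read 7.76, 7.85 and 5.59 in Control 1, 2 and 3 and 7.77, 6.72 and 6.95 in NASH 1, 2 and 3. The difference was 0.08 ± 0.60 (95% interval −1.30 to 1.46, limma adjusted p = 0.981), and −0.65 without Control 3. Among NASH arrays both Otc probe sets were highest in NASH 1 and, after normalization, lowest in NASH 2. In the deposited signals K03041mRNA_s_at was lowest in NASH 3, with 91.4 against 104 in NASH 2. Among Control arrays they parted at Control 3, which was 0.34 below the mean of the other Control arrays for M11266_at and 2.21 below it for K03041mRNA_s_at.

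Control 3 was thus low for 1 probe set each of Otc and Cps1 while their brighter probe sets there were near the other Control arrays. The Cps1 probe set M11710cds_s_at lay 1.93 below the mean of the other Control arrays in Control 3, and M12335expandedCDS_s_at 0.11 below. Over the 6 arrays, M11710cds_s_at and K03041mRNA_s_at correlated at r = 0.91, more closely than either did with the bright probe set of its own gene (0.34 for Cps1 and 0.42 for Otc). These are descriptions over 6 arrays that share their RNA between probe sets. The actin control probes, a measure of RNA integrity, had their highest 3′ to 5′ ratio in Control 3, 5.07 against 2.15 to 2.93 elsewhere. Its part in these values was not tested.

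Ass1 condenses citrulline with aspartate, which brings in the other nitrogen of urea. Its probe set X12459_at had deposited signals of 1828, 2054 and 1366 in Control 1, 2 and 3 and of 1415, 1055 and 580 in NASH 1, 2 and 3. The log2 values were 10.50, 11.20 and 10.33 against 10.29, 10.20 and 9.57. The groups did not overlap, by a narrow margin between Control 3 and NASH 1, and in the deposited signals without scaling they did overlap. The difference was −0.66 ± 0.28 (95% interval −1.30 to −0.02), or 63.4% of Control, with an unadjusted limma p of 0.0450 and an adjusted p of 0.618. Without Control 2 it was −0.40 and without NASH 3 −0.43. Of the 8 probe sets, Ass1 and the brightest of Cps1 were the 2 with all NASH values below all Control values, against 7.76% of all tested.

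Asl splits argininosuccinate into arginine and fumarate, and its difference rested on Control 2. AB016536_s_at read 7.65, 9.13 and 7.95 in Control 1, 2 and 3 and 7.85, 7.88 and 7.76 in NASH 1, 2 and 3. D13978_s_at, the other probe set, read 7.42, 9.11 and 7.96 in Control and 7.64, 7.62 and 7.93 in NASH. Control 2 stood 1.32 and 1.43 above the mean of the other Control arrays, and in both probe sets Control 1 was the lowest of the 6 arrays. The differences were −0.41 ± 0.36 and −0.43 ± 0.40 (limma adjusted p = 0.786 and 0.804), and without Control 2 they were 0.03 and 0.05. The probe sets followed each other over the 6 arrays with r = 0.96.

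Arg1 releases urea from arginine and returns ornithine to the cycle. Its probe set J02720_at read 10.53, 10.91 and 10.66 in Control 1, 2 and 3 and 10.64, 10.09 and 10.52 in NASH 1, 2 and 3. NASH 2 was the lowest of the 6 arrays, NASH 3 lay just below Control 1 and NASH 1 lay above it. The difference was −0.29 ± 0.18 (95% interval −0.71 to 0.14, limma adjusted p = 0.698), or 82.1% of Control. It was −0.12 without NASH 2, the array with the fat and muscle signals given above, and −0.18 without Control 2.

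**Figure D2:**
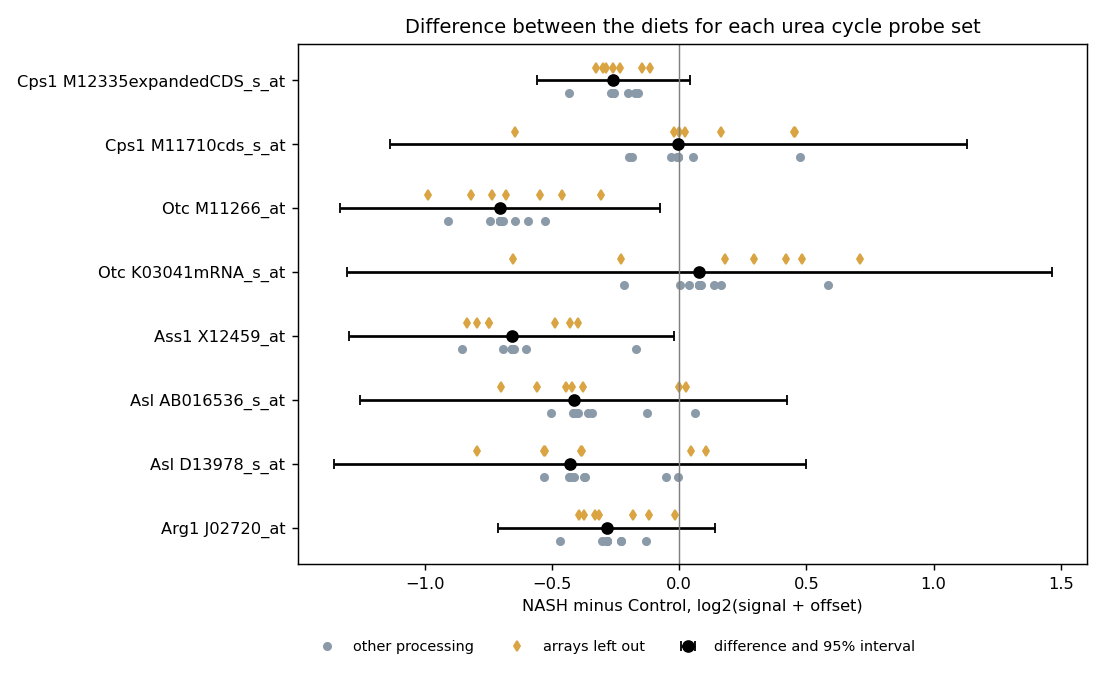
NASH minus Control on the log2(signal + offset) scale for each of the 8 probe sets tested, as black points with 95% limma intervals. Gold diamonds are fits that leave out each array in turn or both Control 2 and NASH 2. Grey circles are the other fits: other processing, and the fit that omits Control 2 and NASH 3, whose wash record was blank. For the brightest probe sets of Cps1 and Otc, and for Ass1 and Arg1, every point lies below 0, whereas points of the Asl probe sets and of the dimmer Cps1 and Otc probe sets lie on both sides.

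The enzymes shared a high level in Control 2. All 8 probe sets tested were highest there, against 23.9% of all probe sets tested. The excess of Control 2 over the mean of the other Control arrays was 0.33 for Cps1, 0.44 for Otc, 0.78 for Ass1, 1.32 for Asl and 0.31 for Arg1 (brightest probe sets). Scaling bears on this count: Control 2 was highest for 7 of 8 when arrays were scaled to a common trimmed mean and for 4 of 8 without scaling (both Asl probe sets, Ass1 and M11710cds_s_at of Cps1). Without Control 2, 4 of the 8 were lower in NASH. NASH 2 was the lowest array for the brightest probe sets of Cps1 and Otc and that of Arg1, and for no other probe set tested here. Without scaling or with hepatocyte centring it was lowest for those of Otc and Arg1 only. The share of all probe sets tested that were lowest in NASH 2 is not given, so nothing particular to the enzymes is read from this.

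**Figure D3:**
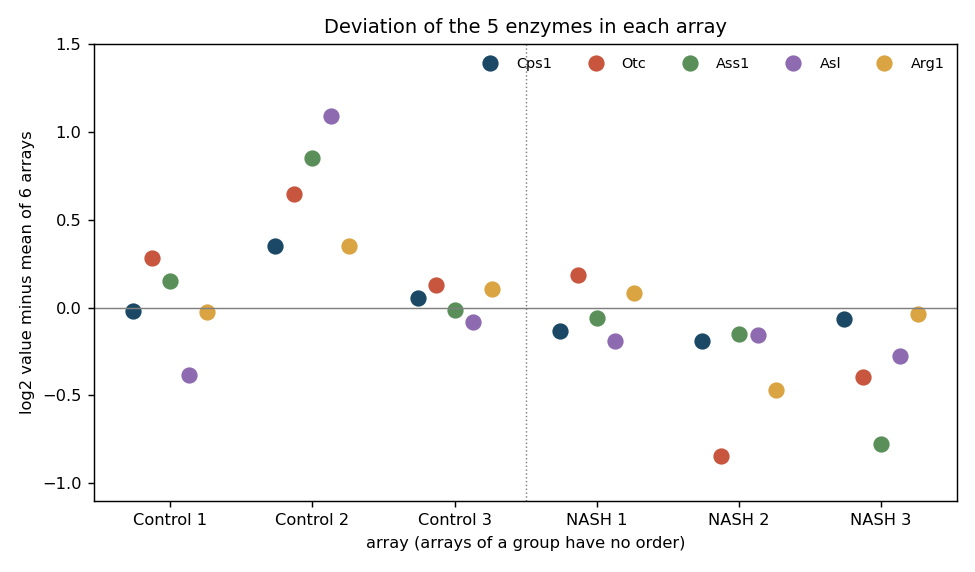
Log2 value of the brightest probe set of each enzyme in each of the 6 arrays, minus its mean over the 6 arrays, 1 colour per gene. All 5 points lie above 0 in Control 2 and below 0 in NASH 2 and in NASH 3, and Otc is the lowest point in NASH 2 and Ass1 in NASH 3.

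The wash record of the instrument was filled for 4 arrays and blank for Control 2 and NASH 3. Among the 4 with a filled record, the differences of the brightest probe sets were −0.17 for Cps1, −0.53 for Otc, −0.17 for Ass1, 0.06 for Asl and −0.23 for Arg1, none past the limma threshold. Between NASH 3 and Control 2, 1 array each and so with no test, they were −0.42, −1.04, −1.63, −1.36 and −0.39. Whether the record marks a processing batch was not tested.

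The instrument records name liver, and hepatocyte markers were read as a check. Of 22, 20 were on the array and tested, 11 lower and 9 higher in NASH, with a median difference of −0.01, with 0 past the limma threshold and 4 at an unadjusted p under 0.05. Albumin (Alb) differed by −0.06 in its brightest probe set and by −0.35, −0.19 and −0.07 in the others. Centring each array on them left differences of −0.20 for Cps1, −0.65 for Otc, −0.60 for Ass1, −0.36 for Asl and −0.23 for Arg1. Markers of hepatocytes near the portal vein were lower for 4 of 5 measured (median −0.24), but for 2 of 5 without Control 2 (0.12), and those near the central vein for 5 of 8 (median −0.24). For Kupffer cells and macrophages 2 of 3 markers were higher (median 0.11), for lymphocytes 6 of 6 tested (0.39), stellate cells 3 of 6 (−0.07, and 1 of 6 with −0.27 without NASH 2), bile duct 2 of 3 (0.10) and endothelium 2 of 2 (0.24). Of 10 lymphocyte markers on the array, 4 lay below the filter: the T cell genes Cd3d, Cd3g, Cd8a and Cd2. The 6 tested include Ptprc (0.28) and Coro1a (1.46), which mark leukocytes at large. Tested adipose markers were higher for 6 of 6 (1.10) and muscle markers for 7 of 8 (1.07). Without NASH 2, adipose markers were higher for 5 of the 5 still above the filter (0.30) and muscle markers for 1 of 4 (−0.06). Both neutrophil genes on the array lay below the filter.

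Of 11 listed genes of ammonia and nitrogen handling, 8 were measured, and all 8 were lower in NASH, with a median of −0.28 and 0 past the limma threshold (1 at an unadjusted p under 0.05). Without Control 2, 6 of the 8 were lower (median −0.14). The list also holds enzymes that do not bring nitrogen to the cycle: Glul takes up ammonia, Asns makes asparagine, and Car5a, which differed by −0.02, supplies bicarbonate to Cps1. Got2, the mitochondrial aspartate aminotransferase, differed by −0.73 ± 0.28 (limma adjusted p = 0.581) and by −0.44 without NASH 2, although its other tested probe set differed by 0.08. For the brightest Got2 probe set the groups did not overlap after quantile normalization. In the deposited signals they did, with 620 in Control 2 and 743 in NASH 1. The cytosolic form Got1 differed by −1.05 ± 0.54 and the alanine aminotransferase Gpt by −0.52 ± 0.27 (adjusted p = 0.623 and 0.621). Got1 was at 9.12 in Control 2 and between 6.49 and 7.08 elsewhere, so that without Control 2 it differed by −0.35. Glud1, glutamate dehydrogenase, differed by −0.20 in its brightest probe set and by −0.89 and −0.40 in 2 others. Glul, glutamine synthetase, differed by −0.20, but 3 other Glul probe sets differed by 0.02, 0.34 and 0.46. Without Control 2 the brightest probe sets differed by −0.016 for Glud1 and −0.034 for Glul. Of these 8 genes, 6 were highest in Control 2.

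Listed genes around ornithine, arginine and citrulline were split, 4 higher and 6 lower of 10 tested. Their median was −0.05, with 0 past the limma threshold and 0 at an unadjusted p under 0.05. The list also holds genes that neither use nor carry these amino acids: Slc25a10 (−0.08), Gamt (−0.20), Azin1 (0.04) and Oaz1 (−0.02). Oat, ornithine aminotransferase, differed by −0.42 ± 0.26 (adjusted p = 0.691), with 0.25 for its other probe set and −0.22 without Control 3. Gatm, which makes guanidinoacetate from arginine, differed by −0.41, and the nitric oxide synthase Nos3 by 0.38 (adjusted p = 0.696 and 0.647), with 0.13 and −0.03 for 2 other Nos3 probe sets. Gatm differed by −0.21 without NASH 2. Arg2, the mitochondrial arginase, lay below the filter with signals of 1.92 to 3.61. The ornithine carrier Slc25a15 and Nags, which makes the activator of Cps1, were looked for, but no probe set had either as its only gene symbol. Listed genes around the return of fumarate and malate had 2 higher and 3 lower of 5 tested. Their median was −0.07, with 0 past the limma threshold and 0 at an unadjusted p under 0.05. This list is not 1 pathway: Sdha (0.16) forms fumarate, Pc starts from pyruvate, and the aspartate-forming Got1 and Got2 are not in it. Within the list Pck1, the enzyme that commits oxaloacetate to glucose synthesis, differed by 1.12 ± 0.55 (limma adjusted p = 0.618). Mdh1 differed by −0.32 and pyruvate carboxylase Pc by −0.12. Pck1 differed by 0.68 without Control 1 and by 1.83 without Control 2 (limma adjusted p = 0.708 and 0.0622), Mdh1 by −0.10 without Control 1 and Pc by −0.056 without Control 3. Pck1 read 8.06, 10.37 and 8.37 in Control 1, 2 and 3 and 9.78 to 10.39 in NASH, so it shared the high Control 2 value with the urea cycle enzymes while its difference had the opposite sign.

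Enzymes of amino acid breakdown were lower for 16 of 23 tested (median −0.12), with 0 past the limma threshold and 2 at an unadjusted p under 0.05. These include Got1 and Gpt, already counted with ammonia and nitrogen handling. Haao, of tryptophan breakdown, differed by −0.58 ± 0.19 and by −0.61 in its other probe set, and the homocysteine-forming Ahcy by −0.86 ± 0.35 (limma adjusted p = 0.503 and 0.612). Ahcy read 8.26 in NASH 2 and 9.45 or above elsewhere, and differed by −0.44 without NASH 2. Control 2 was the highest array for 10 of the 23, and without it 12 were lower (median −0.07). Of 10 transcription factors and receptors known to act on urea cycle genes or liver genes at large, 7 were lower (median −0.23), with 0 past the threshold and 2 at an unadjusted p under 0.05. The hepatocyte factor Foxa2 differed by −0.97 ± 0.31, the glucocorticoid receptor Nr3c1 by −0.54 ± 0.19 and Ppara by −0.61 ± 0.37 (limma adjusted p = 0.503, 0.542 and 0.691), with −0.36 for Ppara without Control 2 and −0.17 without both Control 2 and NASH 2. Nr3c1 read 6.35 to 6.70 in Control and 5.99 in each NASH array, and its other tested probe set differed by −0.66.

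**Figure D4:**
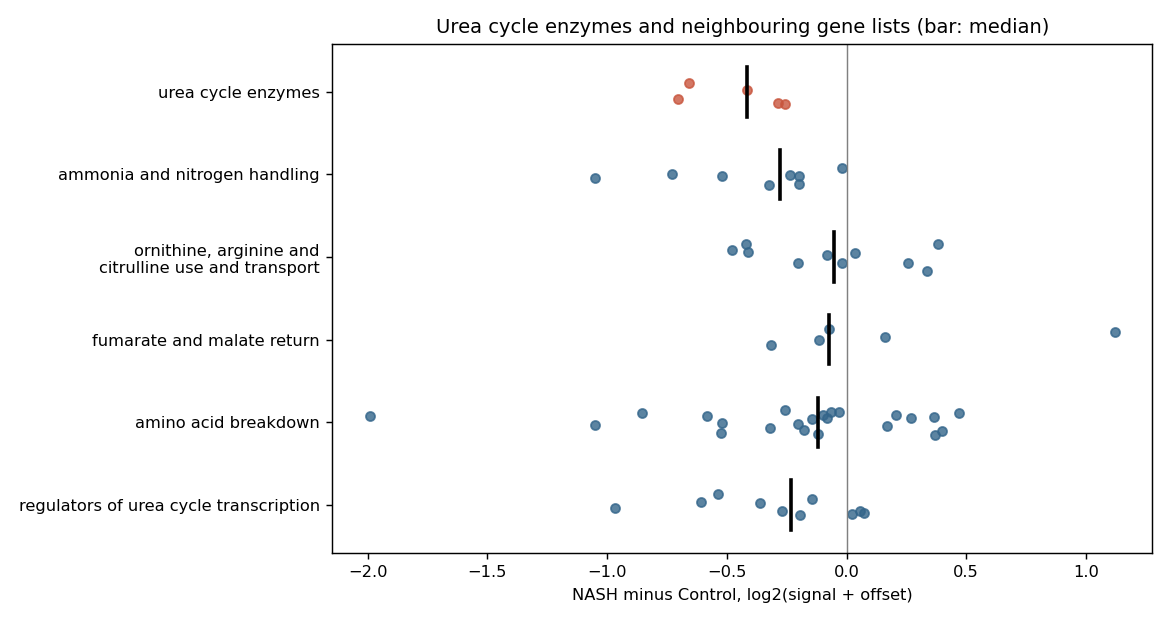
NASH minus Control on the log2(signal + offset) scale for the brightest tested probe set of each gene, 1 point per gene, with the median of each list as a black bar. The 5 urea cycle enzymes (red) lie between −0.70 and −0.26, and the 5 neighbouring lists (blue) have medians from −0.28 to −0.05.

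Genes with the most similar profile over the 6 arrays were sought by Pearson's r with the brightest probe set of each enzyme. Ctsl (0.997), Amacr (0.994) and Rev1 (0.992) were closest to Cps1, and RT1-M5 (0.990), Ncaph2 (0.988) and Rab10 (0.987) to Otc. Il6r (0.987), Krt19 (0.974) and Stx7 (0.972) were closest to Ass1, and Arl6ip4 (0.995), Gpd2 (0.993) and Avp (0.991) to Asl. Drd4 (0.989), Taf6 (0.983) and Aif1 (0.972) were closest to Arg1. With 6 arrays high values are not particular to these genes: of 5244 probe sets tested, 61 reached r = 0.9 with Ass1 and 118 with Otc. Some matches depended on scaling. For Rev1 with Cps1 r was 0.79 without scaling, and for RT1-M5 with Otc it was 0.78 with trimmed mean scaling. For Amacr with Cps1 r was 0.985 and 0.989 under these 2 settings. Between the enzymes' own brightest probe sets, r ranged from 0.55 (Otc with Asl, and Ass1 with Arg1) to 0.92 (Otc with Arg1), which the shared arrays and the high Control 2 values enter.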

How the data were processed

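Liver RNA of 6 samples was read on 1 array each, 3 Control and 3 NASH, grouped by sample titles because all descriptions repeat the text of Control 1. The authors deposited linear MAS5 intensities, 1 per probe set, per the submitters' processing notes, which give no version. MAS5 corrects background and combines the probes of a set. The deposited intensities had no common scale (2% trimmed means 73.6 to 117), so arrays were quantile normalized, and log2 was taken of the normalized signal plus 2.28, the 10th percentile of all values.

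Of 8799 probe sets, 59 controls were left out, and the 5244 with a mean log2 above the 40th percentile were tested with limma 3.58.1 in R 4.3.3 (lmFit and trended eBayes without covariates; residual degrees of freedom 4, prior 3.90), checked on simulated data. A call needed an adjusted p under 0.05 (Benjamini-Hochberg). The number of arrays limits the precision: in the simulated data 38% of 2-fold shifts and 77.6% of 2.83-fold shifts were called. Each simulated table held 200 shifted probe sets, by up to 8-fold, with independent noise. An adjusted p under 0.05 is easier to reach with so many shifts than in the real table, where 7 probe sets were called. These shares can therefore be too high for the urea cycle probe sets. Smaller shifts were not simulated, so 0 calls does not show that levels were equal. The annotation gave 1 symbol to 7006 probe sets, several to 308 and none to 1426. All 9 member symbols matched the reference gene table.

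Genes named beside the members were up to 3 per neighbouring list with the smallest p, a fixed set (Slc25a15, Nags, Arg2, Oat, Glul, Glud1, Alb, Fabp4, Ucp1, Acta1, Ckm) and the 3 most similar to each member. Further genes are named only to show what a list holds: Asns, Car5a, Slc25a10, Gamt, Azin1, Oaz1, Sdha and some lymphocyte markers. A gene with several probe sets is given by the brightest. The lists share genes, among them Got1, Gpt, Foxa2, Hnf4a, Hal, Sds, Gls2, Pck1, Glul and Oat, so they are not separate observations. Members and lists were chosen with earlier results of these data known. Other scalings, offsets, filters, priors, weights, blocks, thresholds and left-out arrays were tried. The counts of the other gene lists without Control 2 or NASH 2 were added after seeing the data.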

Additional observations from a re-analysis of the deposited data

How the results depend on the processing

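No urea cycle probe set was called by limma under the 18 alternative fits or at an adjusted p under 0.10, where the lowest adjusted p was 0.429 (Ass1 with array weights). With each array left out in turn 0 were called and 4 to 8 of the 8 were lower in NASH, 4 without Control 2, and 4 were lower without both Control 2 and NASH 2. The brightest probe sets of Cps1, Otc and Arg1 and that of Ass1 kept their sign in all 18, with ranges of −0.43 to −0.12, −0.99 to −0.31, −0.47 to −0.02 and −0.85 to −0.17. Without scaling the median of all probe sets shifted to −0.17, and relative to it Otc differed by −0.74, Ass1 by −0.68, Asl by −0.33, Arg1 by −0.29 and Cps1 by −0.26.

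Signs turned as follows, and the cause was not tested. With arrays left out singly, M11710cds_s_at (Cps1) ranged from −0.65 to 0.45, K03041mRNA_s_at (Otc) from −0.65 to 0.48, AB016536_s_at (Asl) from −0.70 to 0.026 and D13978_s_at (Asl) from −0.79 to 0.048. M11710cds_s_at was 0.17 without Control 1 and 0.02 without NASH 3, and K03041mRNA_s_at −0.23 without NASH 1. Without both Control 2 and NASH 2, M11710cds_s_at was 0.46, AB016536_s_at 0.00064, D13978_s_at 0.11 and Glud1 0.032. With filled wash records only, M11710cds_s_at was 0.48, AB016536_s_at 0.062 and Glul 0.012. Hepatocyte centring gave 0.054 for M11710cds_s_at and 0.00034 for Alb, and array weights gave −0.22 for K03041mRNA_s_at. The other 14 of 17 neighbouring genes kept their sign.

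Same-numbered arrays did not deviate together (r of −0.02 to 0.07), so the numbers were not taken as pairs. With the replicate block 0 urea cycle probe sets were called, 7 of 8 were lower, and 1 probe set was called over the whole table against 7 without it.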
